A study of Mus musculus with 9 samples.

Results

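Mature eosinophils (Eos) were compared with eosinophil progenitors (EoP) by RNA sequencing, with 2 Eos libraries and 2 EoP libraries of the 9 libraries of the series. The libraries were chosen by their titles, counts were summed per gene symbol, and the comparison covers the genes with a mean of at least 10 CPM (counts scaled to a common library total) in Eos or EoP. All cells were sorted at homeostasis from marrow that was pooled from Balb/c mice given no treatment, with no transgene or deletion named in the labels. Eos were gated as Siglec-F+ CCR3+ cells, and EoP as Lin- CD34+ cells with low c-kit and with CD125, the alpha chain of the IL-5 receptor. The 2 RNA libraries of a cell type are independent sorts. Whether different animals went into each sort is not stated, so a p-value here speaks only of the spread between these libraries, which may be technical. In bulk RNA of sorted cells, fewer cells of a type and less RNA per cell cannot be told apart.

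Eosinophils arise in the bone marrow from granulocyte-macrophage progenitors (GMP) through the EoP, which still divide and respond to IL-5. During maturation the cells fill crystalloid granules with cationic proteins, stop dividing, condense and lobulate the nucleus, and acquire the receptors with which they leave the marrow and reach tissue. A mature eosinophil carries preformed granule protein that it can release on activation.

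The Eos libraries held 10940000 and 10790618 counts, and the EoP libraries 9628492 and 12088134. The Pearson correlation of log2(CPM + 1) across genes was 0.975 between the Eos libraries and 0.980 between the EoP libraries. Rn45s, the ribosomal RNA precursor, took 7.48 to 10.3% of the counts of the 4 libraries. CPM are given after TMM scaling, which estimates 1 factor per library from the bulk of the genes. The sex-linked genes Xist, Ddx3y, Eif2s3y, Kdm5d and Uty summed to 1732 and 2002 CPM in Eos, against 1649 and 3891 in EoP. The sum joins the X-linked Xist with Y-linked genes, so it does not give the share of either sex. None of the 5 genes was called, and the log2 fold change of Xist was −0.62. The Y-linked Ddx3y had 46.1 and 30.5 CPM in EoP, and Eif2s3y 44.9 and 32.1. Whether the sorts differed in the sex of the mice was not tested.

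Of the gate genes, Ccr3 rose and Cd34 fell in Eos, as the gates were set, while Siglec5, which encodes mouse Siglec-F, was not called. Ccr3, the eotaxin receptor, had 2272 and 2973 CPM in Eos, against 21.4 and 34.5 in EoP. Siglec5 had 308 and 415 CPM in Eos, against 282 and 262 in EoP (log2 fold change 0.41, SE 0.23). It did not pass the quasi-likelihood test of edgeR (Benjamini-Hochberg adjusted p = 0.185). Kit had 112 and 39.1 CPM in Eos, against 200 and 237 in EoP. The Kit libraries did not overlap, but its fall by 1.53 log2 units (adjusted p = 0.0135) was lost without EoP replicate 2.

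Of the 8794 genes of at least 10 CPM, 2210 were higher in Eos (25.1%) and 2190 lower (24.9%) at an adjusted p under 0.05. The rises were the larger changes. A change of at least 16-fold was found in 171 of the higher genes and 28 of the lower genes, and a change of at least 4-fold in 702 and 287. The median log2 fold change was 1.5 over the higher genes and −1.33 over the lower genes. The libraries of the 2 cell types did not overlap in 2209 of the higher and 2182 of the lower genes. They also did not overlap in 7210 of all 8794 genes and in 2819 of the 4394 genes not called. A lack of overlap alone, here and below, therefore does not mark a gene as changed. The counts were smaller without EoP replicate 1 (1424 higher and 1202 lower) and without EoP replicate 2 (1507 and 1298), each of which leaves a single EoP library. On the deposited RPKM values, tested with limma on log2(RPKM + 0.5), the median gene lay at −0.51 log2 units and 1356 genes were higher and 3785 lower. Once each library was centred on its median the numbers were 2159 and 2341. Directions below are therefore relative to the median gene, which lay at −0.05 on the TMM scale.

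**Figure D1:**
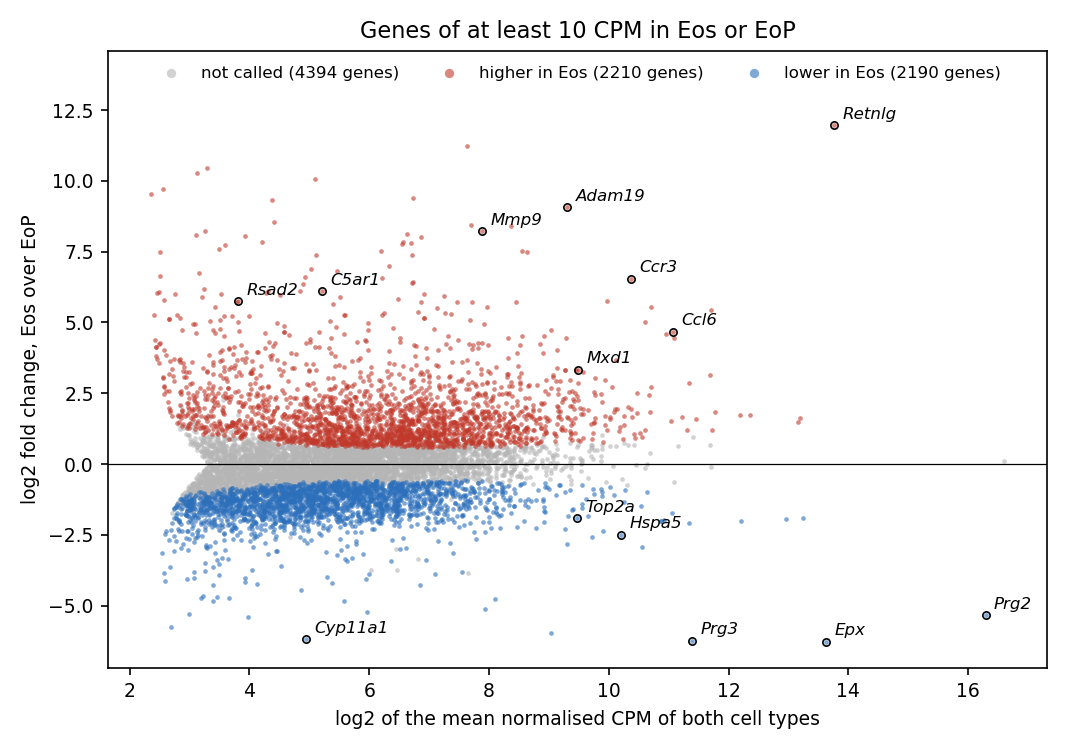
Log2 fold change, Eos over EoP, against the log2 of the mean normalised CPM of both cell types, with 1 point per gene of at least 10 CPM. Red points are the 2210 genes higher in Eos, blue points the 2190 lower and grey points the 4394 not called. Retnlg lies highest at 11.98, and the granule genes Prg2, Epx and Prg3 lie below −5 at the right.

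The Eos libraries were not equally far from EoP. Eos replicate 1 was above Eos replicate 2 in 1939 of the 2190 lower genes (88.5%) and in 302 of the 2210 higher genes (13.7%), against 47.8% of the genes not called. Among the lower genes the median Eos replicate 1 level was 0.56 log2 units above that of replicate 2, and among the higher genes 0.41 units below. Eos replicate 1 thus lay nearer to EoP for most changed genes. Without Eos replicate 1, 2540 genes were higher and 2751 lower, and without Eos replicate 2 the numbers were 1888 and 1712.

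**Figure D2:**
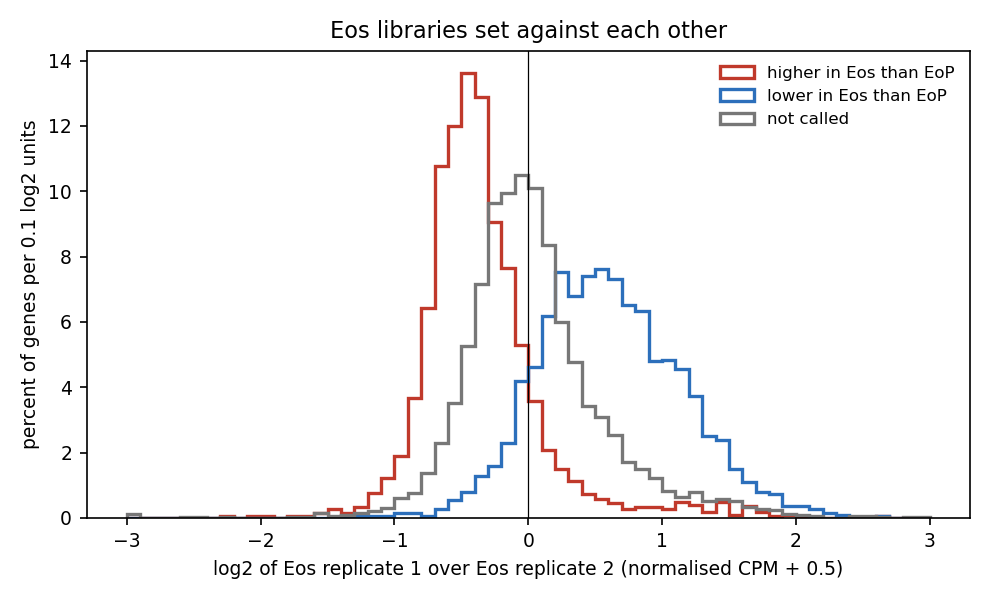
Percent of genes per 0.1 log2 units by the log2 ratio of Eos replicate 1 over Eos replicate 2, for genes higher in Eos (red), lower in Eos (blue) and not called (grey). The red curve lies mostly left of 0 and the blue curve mostly right of it; values past 3 log2 units are drawn at 3.

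Genes listed as markers of other marrow cells differed between Eos and EoP. Of the 23 neutrophil markers of at least 10 CPM, 22 were higher in Eos and 1, Hdc, was lower, with a median log2 fold change of 5.73. Their summed level was 43530 and 49540 CPM in Eos, against 1358 and 860 in EoP. Retnlg, which encodes resistin-like gamma, was the largest single contributor, with 20590 and 35160 CPM in Eos, against 8.61 and 5.23 in EoP. The secondary granule genes Ltf, Ngp and Camp and the receptor gene Csf3r were also high: Ltf had 714 and 598 CPM in Eos, against 2.71 and 1.20 in EoP, and Csf3r had 195 and 106 CPM in Eos, against 8.37 and 10.6 in EoP. The libraries of Ltf, Ngp, Camp and Csf3r did not overlap between the cell types. The 6 azurophil granule genes of the early neutrophil lineage summed to 15250 and 5127 CPM in Eos, against 2572 and 3124 in EoP. Of the 6, 4 were called higher (2 without either EoP library), and Mpo, the myeloperoxidase gene, had 10530 and 3780 CPM in Eos, against 1922 and 2376 in EoP. The part of neutrophil RNA in the rises given below was not tested.

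In Eos, the markers of each other lineage listed next summed to less than the neutrophil markers. Over all genes, 25.1% were higher and 24.9% lower. Of 9 mast cell and basophil markers, 7 were lower in Eos, and their sum differed between the EoP libraries: 271 and 341 CPM in Eos, against 1046 and 3987 in EoP. Prss34, a basophil protease gene, had 21.5 and 11.7 CPM in Eos, against 282 and 1782 in EoP. Of 10 erythroid markers, 9 were higher in Eos and Tfrc was lower, with sums of 311 and 464 CPM in Eos, against 416 and 301 in EoP. The beta globin gene Hbb-bs had 24.1 and 67.4 CPM in Eos, against 1.42 and 2.14 in EoP. Its counts were identical to those of Hbb-b1 in each library, so the reads are shared. Those of Hbb-b2 and Hbb-bt were identical too, so both pairs enter the erythroid count and sums more than once. Of 13 monocyte, macrophage and dendritic markers, 8 were higher and 2 lower, with sums of 2091 and 2847 CPM in Eos, against 1565 and 1567 in EoP. Of 6 B cell and plasma cell markers, 3 were higher and 1 lower, with sums of 200 and 92.4 CPM in Eos, against 49.3 and 68.2 in EoP. The 3 rises were not called without Eos replicate 1. Of the T and NK cell markers, 1 of 3, Cd3d, was higher, and Cd3e, a T cell receptor subunit, had no count in EoP and 0.603 and 0.819 CPM in Eos. Of 4 megakaryocyte markers, 2 were higher and 2 lower, and both stromal markers of at least 10 CPM were lower. Of 14 stem and progenitor markers, 6 were lower (42.9%) and 3 higher (21.4%). The lower ones include Cd34 and Kit, on which EoP were gated. The part of these cells in the results was not tested either.

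The largest changes named genes of several kinds. Tmem229a had 237 and 554 CPM in Eos, against 3 counts over both EoP libraries, a ratio of 2577 (95% counting interval 882 to 12500). Adam19, a membrane-bound metalloprotease gene, had 896 and 1633 CPM in Eos, against 2.95 and 1.80 in EoP. Pla2g7, whose secreted enzyme breaks down platelet-activating factor, had 262 and 571 CPM in Eos, against 1.30 and 1.11 in EoP. None of these 3 overlapped between the cell types, and Eos replicate 2 was the higher Eos library in each. Among the falls, Cyp11a1, which encodes the enzyme of the first step of steroid synthesis, had 0.603 and 1.05 CPM in Eos, against 68.8 and 52.2 in EoP (log2 fold change −6.19, SE 0.39, adjusted p = 1.22e-05). Lipg, the endothelial lipase gene, had 4.32 and 1.99 CPM in Eos, against 172 and 70.0 in EoP. Slc30a2, a vesicular zinc transporter gene, had 0.603 and 0.819 CPM in Eos, against 35.3 and 26.2 in EoP.

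The granule protein genes fell as a group. All 11 members of at least 10 CPM were lower in Eos, against 24.9% of all genes, with a median log2 fold change of −2.01. Epx, for eosinophil peroxidase, had 436 and 214 CPM in Eos, against 26970 and 23220 in EoP. Prg3, for a homologue of major basic protein, had 86.0 and 54.4 CPM in Eos, against 5762 and 4816 in EoP. Prg2, for major basic protein, still had 4426 and 3321 CPM in Eos, against 176400 and 137100 in EoP. The log2 changes of the Ear genes, which encode the eosinophil-associated ribonucleases, were smaller. Ear1 had 4052 and 4074 CPM in Eos, against 16030 and 14500 in EoP (log2 fold change −1.91, SE 0.67, adjusted p = 0.0483), and Ear2 had 1053 and 931 CPM in Eos, against 4764 and 3621 in EoP (−2.08, SE 0.59, adjusted p = 0.0207). The Ear libraries did not overlap, yet the calls of Ear1, Ear3, Ear6, Ear7, Ear11 and Ear12 were each lost without EoP replicate 1, as was that of Ear2, and none of these 7 passed the DESeq2 Wald test. Without Eos replicate 2, EoP replicate 1 or EoP replicate 2, 7, 4 and 7 of the 11 genes were called. The counts of Ear3 and Ear12 were identical in every library, so reads of these near-identical genes cannot be told apart. Ear1 and Ear7 remained among the 8 genes of the highest RPKM in Eos.

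The genes that fold and load secretory protein fell with the granule cargo. Of 36 genes of endoplasmic reticulum (ER) folding and the unfolded protein response, 28 were lower (77.8%, against 24.9% of all genes). None was higher, and the median was −1.57. Hspa5, the main chaperone of the ER lumen, had 461 and 248 CPM in Eos, against 2724 and 1277 in EoP. Calr, the calcium-binding lectin chaperone calreticulin, had 336 and 150 CPM in Eos, against 1636 and 1264 in EoP (log2 fold change −2.58, SE 0.38, adjusted p = 0.000939). Pdia6, a disulfide isomerase gene, had 105 and 49.0 CPM in Eos, against 474 and 352 in EoP. In each of the 3 every Eos library lay below every EoP library, and Eos replicate 2 was the lowest. Creld2, a target of ER stress, fell by 2.60 (SE 0.33) with 29.4 and 23.9 CPM in Eos, against 214 and 110 in EoP. Xbp1, the transcription factor of the secretory cell programme, was among the 6 lineage factors that were lower.

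Genes for making ribosomes and protein fell as well, by smaller amounts. In the lists below, 82.5, 69.8, 55.0 and 53.3% of members were lower in turn, against 24.9% of all genes. Of 40 ribosome biogenesis genes, 33 were lower and 1, Polr1a, was higher (median −1.42; the Polr1a call was lost without either EoP library). Gnl3, a nucleolar GTPase gene, had 31.9 and 14.9 CPM in Eos, against 82.4 and 104 in EoP. Nop58, a core protein of the box C/D small nucleolar particles, had 52.7 and 23.5 CPM in Eos, against 138 and 135 in EoP. Both genes had no overlap between the cell types. Of 53 cytosolic ribosomal protein genes, 37 were lower and none higher (median −1.02), but 23 were lower without Eos replicate 2 and 2 without EoP replicate 1. Of 20 cytosolic tRNA synthetase genes, 11 were lower (7 without EoP replicate 1), and Farsb, for the phenylalanine enzyme, had 35.7 and 28.7 CPM in Eos, against 117 and 114 in EoP. Of 45 splicing factor genes, 24 were lower and none higher (6 without EoP replicate 1 and 11 without EoP replicate 2). Srsf7 had 198 and 163 CPM in Eos, against 554 and 459 in EoP.

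The mitochondrial lists moved the same way with less support. The shares called lower were 38.2% of oxidative phosphorylation genes and 44.4% of mitochondrial ribosomal protein genes, against 24.9% of all genes. Of 68 oxidative phosphorylation genes, 26 were lower and none higher, with a median of −0.64. The number lower was 46 without Eos replicate 1, 8 without Eos replicate 2, 1 without EoP replicate 1 and 5 without EoP replicate 2. Atp5g3, a subunit of the ATP synthase ring, had 106 and 68.9 CPM in Eos, against 226 and 186 in EoP, and its fall by 1.24 (SE 0.26, adjusted p = 0.00466) passed with any library left out. Of 63 mitochondrial ribosomal protein genes, 28 were lower (44 without Eos replicate 1, 7 without EoP replicate 1 and 13 without EoP replicate 2). Of 36 proteasome subunit genes, 18 were lower and 2 higher, against 24.9% and 25.1% of all genes. The number lower was 7 without Eos replicate 2, 1 without EoP replicate 1 and 7 without EoP replicate 2. The 2 that rose, Psmb9 and Psmb10, encode subunits of the immunoproteasome, which interferon induces. Psmb8, for another subunit of it, was not called (log2 fold change 0.29). Psmb9 had 261 and 231 CPM in Eos, against 152 and 112 in EoP. Its call was lost without either EoP library, and so was that of Psmb10, which was also lost without Eos replicate 1.

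**Figure D3:**
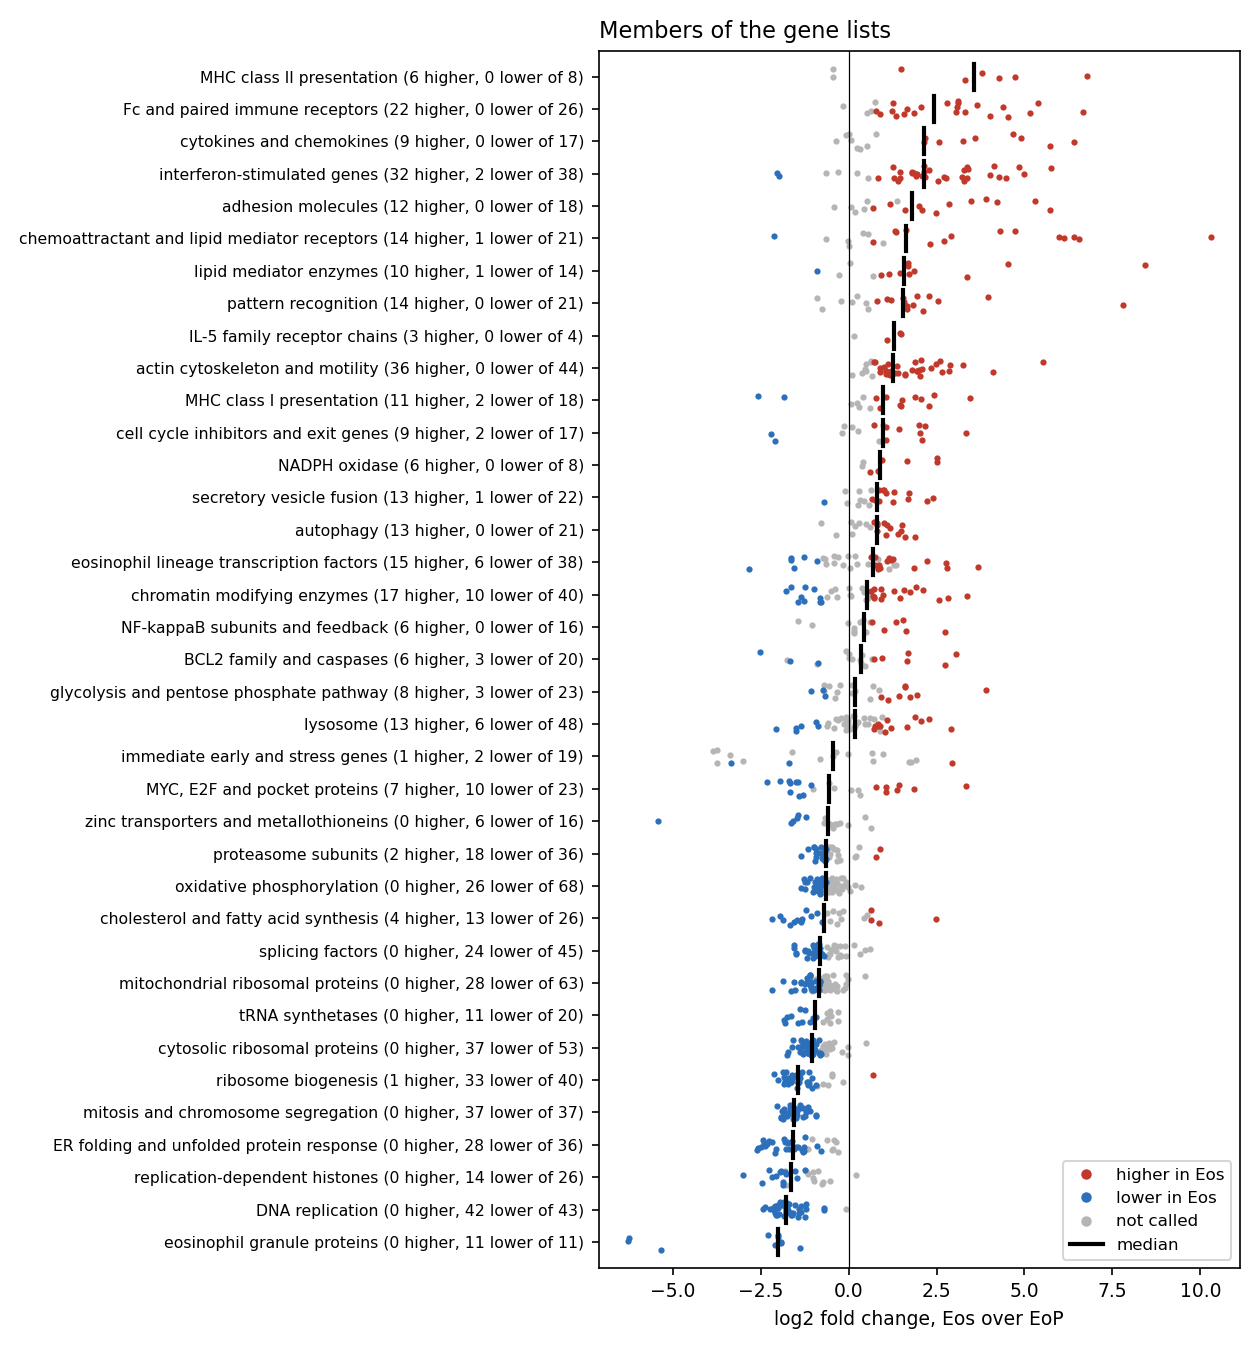
Log2 fold change, Eos over EoP, of every member of at least 10 CPM in 37 gene lists, with the list median as a black bar and the points spread vertically for view. The lists run from MHC class II at the top (median 3.56) to the granule proteins at the bottom (−2.01). The MHC class II sum was uneven between the Eos libraries.

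The cell division programme was lower in Eos across its stages. All 37 genes of mitosis and chromosome segregation and 42 of 43 DNA replication genes were lower, against 24.9% of all genes, with medians of −1.56 and −1.77. With limma on log2(RPKM + 0.5) and no filter on low RPKM, 4 and 10 were called lower, while 37 and 42 were with the filter. Of 26 replication-dependent histone genes, 14 were lower and none higher. Mcm3, part of the helicase that opens replication origins, had 97.7 and 29.5 CPM in Eos, against 285 and 308 in EoP. Prim1, the primase catalytic subunit gene, had 24.7 and 6.78 CPM in Eos, against 83.9 and 81.9 in EoP. Hist1h1b, a linker histone gene, had 30.1 and 10.3 CPM in Eos, against 186 and 139 in EoP (log2 fold change −3.0, SE 0.44, adjusted p = 0.000839). None of the 3 overlapped, and Eos replicate 1 was the higher Eos library in each. The mitosis list summed to 4065 and 2176 CPM in Eos, against 8758 and 9543 in EoP, so transcripts of dividing cells were still measured in both Eos libraries. Whether they came from dividing cells in the gate was not tested.

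Promoters of the mitosis genes shared short sequences, and 2 are shown because they hold both. In RefSeq's table of GRCm38.p6 promoters, each window runs from 250 bases before to 50 after a start. The cell cycle homology region (CHR, TTTGAA) stood on either strand in 75.0% of the 32 windows of the called mitosis genes, against 17.9% of all 32851 windows. CCAAT stood in 78.1%, against 37.4%, and both together in 68.8%, against 6.95%. Both motifs are bound at cell cycle genes by known factors, the DREAM complex and NF-Y; the matches printed below do not overlap. Among the 41 windows of called DNA replication genes, CHR stood in 12.2% and CCAAT in 61.0%. The windows are given without the 50 bases after the start, 5′ to 3′, with both motifs in capitals on either strand (TTCAAA and ATTGG are the reverse forms).
Top2a, chr11:99024190-99024439, minus strand: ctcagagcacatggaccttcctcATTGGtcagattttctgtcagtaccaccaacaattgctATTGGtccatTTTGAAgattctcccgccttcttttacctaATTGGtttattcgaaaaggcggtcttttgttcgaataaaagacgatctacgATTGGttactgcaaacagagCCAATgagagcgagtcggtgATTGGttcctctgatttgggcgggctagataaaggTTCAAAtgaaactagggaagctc
Ncapg, chr5:45669675-45669924, plus strand: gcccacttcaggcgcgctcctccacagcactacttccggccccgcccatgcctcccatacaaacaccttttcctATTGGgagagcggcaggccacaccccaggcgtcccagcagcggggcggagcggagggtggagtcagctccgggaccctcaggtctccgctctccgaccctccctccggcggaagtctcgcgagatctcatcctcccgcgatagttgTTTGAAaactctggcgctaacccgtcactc
The CHR of Ncapg begins 30 bases before the start, and that of Top2a nearest to the start begins 23 bases before it. Top2a, which encodes the topoisomerase that untangles sister chromatids, had 395 and 199 CPM in Eos, against 1073 and 1157 in EoP (log2 fold change −1.91, SE 0.33, adjusted p = 0.00187). Ncapg, a condensin subunit gene, had 398 and 155 counts in Eos, against 848 and 1285 in EoP (log2 fold change −1.85, SE 0.33). Neither gene overlapped between the cell types. The matches are letters in a window and are no evidence of binding in these cells.

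Of 23 MYC, E2F and pocket protein genes, 10 were lower (43.5%, against 24.9% of all genes) and 7 higher (30.4%, against 25.1%). Without EoP replicate 2 the numbers were 6 and 4. E2f8, an E2F family repressor gene of proliferating cells, had 84.5 and 38.2 CPM in Eos, against 194 and 281 in EoP. Mxd1, which encodes an antagonist of MYC that pairs with MAX, had 1185 and 1421 CPM in Eos, against 137 and 121 in EoP (log2 fold change 3.34, SE 0.25, adjusted p = 2.54e-05). Max and Mnt, of the same network, rose by 1.85 (SE 0.25) and 1.38 (SE 0.23). Rbl2, the pocket protein p130 of resting cells, had 378 and 516 CPM in Eos, against 154 and 178 in EoP. None of these 5 overlapped between the cell types. Of 17 genes of cell cycle inhibition and exit, 9 were higher (52.9%, against 25.1% of all genes) and 2 lower. Fewer were higher without EoP replicate 2. Mxd1, Mxd4, Mxi1 and Rbl2 are among the higher genes of both lists. Cdkn1b, the gene for p27, had 66.1 and 125 CPM in Eos, against 25.4 and 17.2 in EoP. Cdkn1a, the gene for p21, went the other way, with 5.32 and 11.1 CPM in Eos, against 43.8 and 25.8 in EoP, a fall by 2.08 (adjusted p = 0.00998) that was lost without EoP replicate 1. Cdkn2c, another inhibitor gene, fell by 2.21 (SE 0.50).

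**Figure D4:**
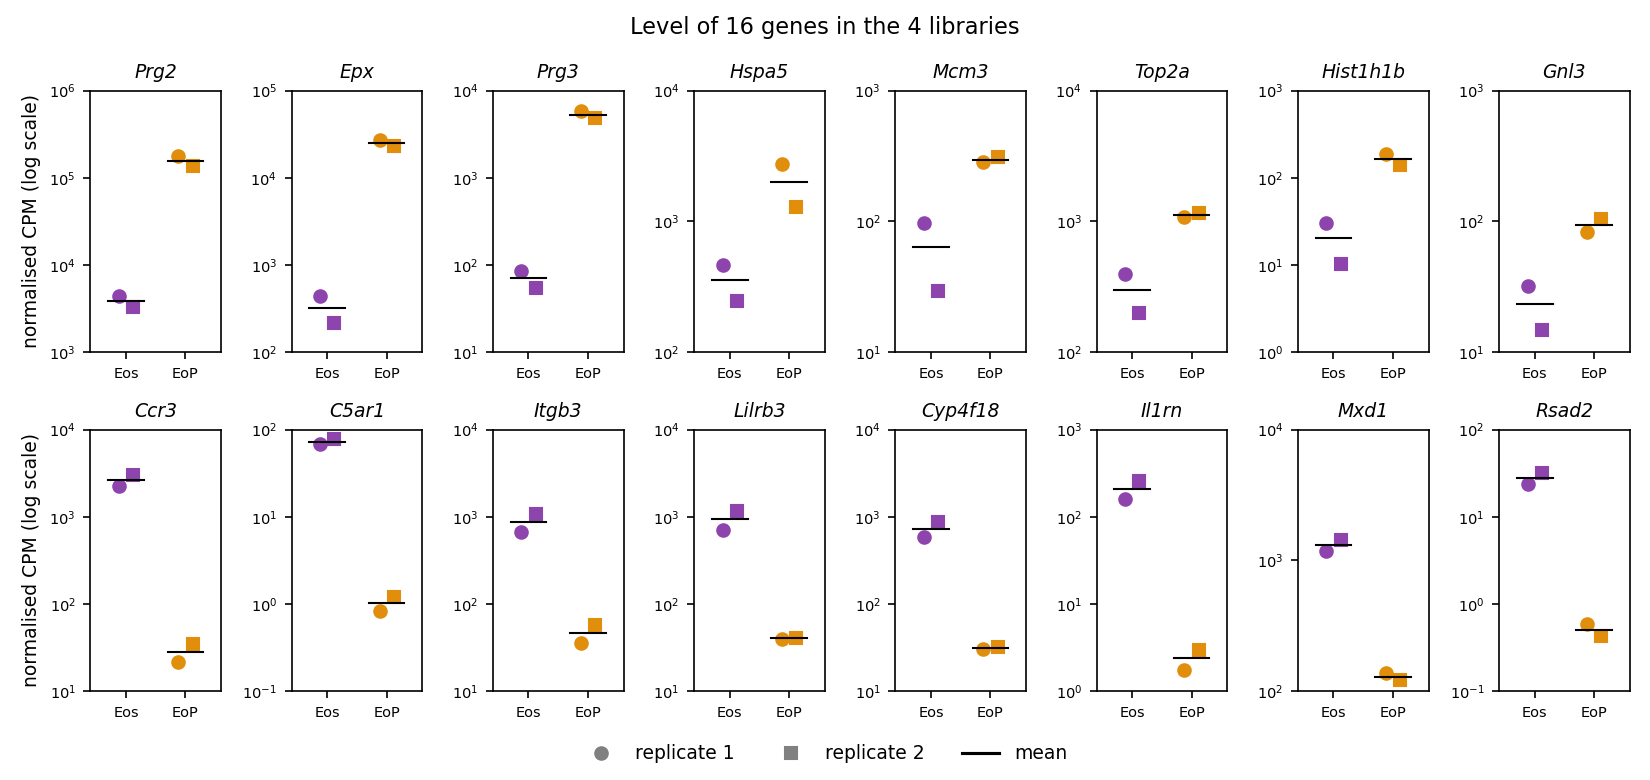
Normalised CPM on a log axis of 16 genes in each library, with Eos left of EoP, circles for replicate 1, squares for replicate 2 and a bar at the mean. The upper row holds genes that fell in Eos and the lower row genes that rose. In each panel the Eos and EoP libraries do not overlap.

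Receptors that guide mature cells rose broadly. Of 21 chemoattractant and lipid mediator receptor genes, 14 were higher and 1, P2ry1, was lower, against 25.1% and 24.9% of all genes. The 14 include Ccr3, on which Eos were gated, and Cxcr2, which is also among the neutrophil markers. Fpr1, a formyl peptide receptor gene, had 18.0 and 17.0 CPM in Eos and no count in EoP, so it was at least 118-fold higher against a floor of 3 counts over both EoP libraries. C5ar1, the receptor gene for complement C5a, had 68.1 and 77.4 CPM in Eos, against 0.826 and 1.20 in EoP. C3ar1, its counterpart for C3a, had 151 and 263 CPM in Eos, against 1.18 and 3.51 in EoP. The Eos libraries lay above the EoP libraries in all of these. P2ry1, an ADP receptor gene, had 5.72 and 3.74 CPM in Eos, against 12.9 and 28.2 in EoP, a fall by 2.11 that was lost without EoP replicate 2. Neutrophils carry formyl peptide and complement receptors too, and the neutrophil marker sum, with Retnlg as its largest contributor, moved the same way. Eos replicate 1 was the higher Eos library for 19 of the 23 neutrophil markers and for 8 of these 21 receptor genes. It was the higher one in 49.4% of all genes and in 13.7% of the genes higher in Eos. The neutrophil marker sum was 43530 CPM in Eos replicate 1 and 49540 in Eos replicate 2. The part of neutrophil RNA in the receptor rises was not tested.

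Of 4 receptor chain genes of the IL-5, IL-3 and GM-CSF family, 3 rose (75.0%, against 25.1% of all genes). Fewer rose without EoP replicate 1. Csf2rb, the shared signalling chain, had 567 and 1001 CPM in Eos, against 685 and 729 in EoP, and its libraries overlapped (log2 fold change 0.15, SE 0.29, adjusted p = 0.715). Csf2ra, the GM-CSF chain, had 185 and 261 CPM in Eos, against 76.5 and 82.5 in EoP, a rise by 1.49 (SE 0.26). Csf2rb2 rose by 1.45, a call lost without EoP replicate 1. Il5ra had 619 and 1179 CPM in Eos, against 437 and 399 in EoP, and its rise by 1.10 (adjusted p = 0.0183) was lost without Eos replicate 2 or either EoP library. Il3ra, the IL-3 chain, had 4.32 and 3.39 CPM in Eos, against 5.78 and 3.77 in EoP.

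Adhesion molecules and activating and inhibitory receptors rose without a member called lower. In the adhesion, immune receptor and pattern recognition lists, 66.7, 84.6 and 66.7% of members were higher, against 25.1% of all genes. Of 18 adhesion genes, 12 were higher. Itgb7, the integrin chain that pairs with alpha 4 and alpha E, had 263 and 383 CPM in Eos, against 4.25 and 12 in EoP. Itgal, the alpha chain of LFA-1, had 463 and 866 CPM in Eos, against 27.8 and 59.7 in EoP. Itgb3, the vitronectin receptor chain, had 670 and 1079 CPM in Eos, against 35.6 and 57.4 in EoP. These 3 did not overlap between the cell types. Of 26 Fc and paired immune receptor genes, 22 were higher, with a median of 2.44. Lilrb3, an inhibitory receptor of the leukocyte immunoglobulin-like family, had 698 and 1168 CPM in Eos, against 39.4 and 41.1 in EoP (log2 fold change 4.53, SE 0.32, adjusted p = 2.00e-05). Its activating relative Pira6 had 167 and 272 CPM in Eos, against 5.07 and 5.4 in EoP. Pira4 rose by 5.16 (SE 0.32). These genes are near-identical copies, and how their shared reads were split is uncertain. Of 21 pattern recognition genes, 14 were higher. Tlr13, the mouse sensor of bacterial ribosomal RNA, had 159 and 253 CPM in Eos, against 1.42 and 0.514 in EoP (log2 fold change 7.79, SE 0.45).

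Genes of mediators followed the receptors. The shares called higher were 71.4% of lipid mediator enzymes and 52.9% of cytokines and chemokines, against 25.1% of all genes. Of 14 lipid mediator enzyme genes, 10 were higher and 1, Ptges3, was lower (not called without EoP replicate 1). Cyp4f18, whose enzyme inactivates leukotriene B4 by hydroxylation, had 581 and 863 CPM in Eos, against 30.5 and 32.3 in EoP. Alox5ap, the 5-lipoxygenase activating protein gene, had 1295 and 2121 CPM in Eos, against 524 and 425 in EoP. Of 17 cytokine and chemokine genes, 9 were higher and none lower. Il1rn, the IL-1 receptor antagonist gene, had 160 and 259 CPM in Eos, against 1.77 and 3.0 in EoP (log2 fold change 6.42, SE 0.43, adjusted p = 1.48e-05). Ccl6, a CC chemokine gene of rodents, had 3038 and 5247 CPM in Eos, against 207 and 117 in EoP. Thbs1, for the matrix protein thrombospondin 1, had 177 and 280 CPM in Eos, against 3.77 and 4.80 in EoP. Il4, the type 2 cytokine gene, was present in both cell types, with 67.0 and 93.3 CPM in Eos, against 23.2 and 12.9 in EoP (log2 fold change 2.15, SE 0.32). The Eos and EoP libraries did not overlap for any of these 6 risers.

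All 8 genes of the NADPH oxidase, which makes superoxide, had higher CPM in both Eos libraries than in either EoP library, which on the RPKM scale did not hold for Cyba, Rac1 and Ncf4, and 6 were called higher (3 without either EoP library). Ncf1, the cytosolic subunit p47phox, rose by 2.51 (SE 0.26). Cybb, the catalytic subunit gp91phox, had 3223 and 4005 CPM in Eos, against 1083 and 1222 in EoP. Cyba, its membrane partner, had 186 and 181 CPM in Eos, against 158 and 125 in EoP (log2 fold change 0.38, adjusted p = 0.186), but its RPKM were 79.8 and 63.6 in Eos, against 83.3 and 71.7 in EoP. Of 44 actin cytoskeleton and motility genes, 36 were higher and none lower (22 without EoP replicate 1 and 23 without EoP replicate 2). Actb, the beta actin gene, had 11650 and 16720 CPM in Eos, against 4628 and 4622 in EoP, and its call was lost without either EoP library. Capg, an actin capping protein gene, had 190 and 233 CPM in Eos, against 23.7 and 20.3 in EoP. S100a6, a calcium-binding protein gene, had 306 and 245 CPM in Eos, against 8.26 and 3.86 in EoP. Lsp1, an actin-binding protein gene of leukocytes, had 195 and 272 CPM in Eos, against 8.85 and 18.2 in EoP. Capg, S100a6 and Lsp1 passed with any library left out. The shares called higher were 75.0% of the oxidase genes and 81.8% of the actin genes, against 25.1% of all genes. Neutrophils express the oxidase and actin genes as well.

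Genes of vesicle fusion and autophagy rose in part. The shares called higher were 59.1% and 61.9% in turn, against 25.1% of all genes. Of 22 secretory vesicle fusion genes, 13 were higher and 1, Stx3, was lower. Without EoP replicates 1 and 2, 5 and 6 were higher, and Stx3 was not called without either EoP library or Eos replicate 1. Sytl1, a RAB27 effector gene, had 106 and 158 CPM in Eos, against 30.1 and 19.6 in EoP. Stx11, a syntaxin gene of cytotoxic and myeloid cells, had 63.1 and 92.4 CPM in Eos, against 15.6 and 17.5 in EoP. Both kept their calls with any library left out. Of 21 autophagy genes, 13 were higher and none lower (7 without EoP replicate 1 and 8 without EoP replicate 2). Ulk1, the initiating kinase gene, had 116 and 141 CPM in Eos, against 30.9 and 38.1 in EoP. Of 48 lysosome genes, 13 were higher (27.1%, against 25.1% of all genes) and 6 lower (12.5%, against 24.9%), near or below the background. Without EoP replicates 1 and 2, 6 and 7 were higher, and the list median of 0.17 turned to −0.32 on the RPKM scale. Ctsd, the cathepsin D gene, had 889 and 922 CPM in Eos, against 243 and 190 in EoP. Tfeb, the master regulator of lysosome genes, rose by 1.88 (SE 0.28). Cd63, a tetraspanin of eosinophil granule membranes, had 214 and 159 CPM in Eos, against 887 and 672 in EoP (log2 fold change −2.06, SE 0.28, adjusted p = 0.000543).

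Interferon-stimulated genes were higher in Eos from mice without any treatment. Of 38 such genes, 32 were higher and 2 lower, against 25.1% and 24.9% of all genes, with a median log2 fold change of 2.14. The 2 that fell, Ly6e and Ifitm1, are also genes of immature blood cells. Ly6e had 935 and 628 CPM in Eos, against 3377 and 2811 in EoP, and with it included the list summed to 3953 and 4793 CPM in Eos, against 4300 and 3798 in EoP. Zbp1, a sensor of left-handed nucleic acid, had 40.9 and 44.2 CPM in Eos, against 1.77 and 0.943 in EoP. Ddx58, the RNA sensor RIG-I of the pattern recognition list, had 144 and 231 CPM in Eos, against 37.0 and 39.3 in EoP. In both genes the cell types did not overlap.

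The interferon-stimulated response element (ISRE) was searched as GAAA, any 2 bases and GAAA again on either strand of the same windows. It stood in 40.0% of the 30 windows of the called interferon-stimulated genes, against 3.44% of all windows. The windows of Rsad2 and Oas3 are given because these genes have the largest rises among those with a match. They lack the 50 bases after the start and run 5′ to 3′, with the ISRE match in capitals (in Rsad2 it reads on the other strand).
Rsad2, chr12:26456453-26456702, minus strand: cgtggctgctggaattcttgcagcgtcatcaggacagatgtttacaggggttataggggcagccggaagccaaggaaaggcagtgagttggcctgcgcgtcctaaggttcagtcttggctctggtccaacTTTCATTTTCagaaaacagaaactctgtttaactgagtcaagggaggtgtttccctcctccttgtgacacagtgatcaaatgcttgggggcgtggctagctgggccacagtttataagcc
Oas3, chr5:120777660-120777909, minus strand: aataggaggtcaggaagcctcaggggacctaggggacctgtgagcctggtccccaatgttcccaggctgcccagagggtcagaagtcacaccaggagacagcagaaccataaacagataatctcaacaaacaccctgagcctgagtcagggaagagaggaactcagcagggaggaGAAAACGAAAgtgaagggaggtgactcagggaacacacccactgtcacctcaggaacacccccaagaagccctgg
The match begins 120 bases before the start of Rsad2 and 75 bases before that of Oas3. Rsad2, the antiviral enzyme viperin, had 23.7 and 31.6 CPM in Eos, against 0.590 and 0.429 in EoP (log2 fold change 5.75, SE 0.47, adjusted p = 3.83e-05). Oas3, an oligoadenylate synthetase gene, had 81.9 and 85.7 CPM in Eos, against 2.71 and 3.09 in EoP (4.84, SE 0.27, adjusted p = 1.07e-05). Both Eos libraries were within 1 log2 unit of each other and above both EoP libraries. The match is a description of the window and says nothing of binding.

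Antigen presentation genes rose in part. The shares called higher were 61.1% of MHC class I genes and 75.0% of class II and costimulation genes, against 25.1% of all genes. Of 18 MHC class I genes, 11 were higher and 2 lower (5 higher without EoP replicate 2). The 2 lower, Calr and Pdia3, are ER chaperones that also load class I molecules. Nlrc5, the transactivator of class I genes, had 76.6 and 81.4 CPM in Eos, against 11 and 3.69 in EoP, and H2-D1, a class I heavy chain gene, had 2259 and 3261 CPM in Eos, against 686 and 345 in EoP. Of 8 MHC class II and costimulation genes, 6 were higher, with sums of 379 and 157 CPM in Eos, against 69.7 and 76.9 in EoP. Cd74, the invariant chain gene, had 139 and 21.8 CPM in Eos, against 4.01 and 7.37 in EoP. Eos replicate 1 was the higher Eos library here, as it was in the B cell and plasma cell marker sum given above; the part of B cell RNA was not tested. Cd86, a costimulatory ligand gene, had 16.5 and 18.8 CPM in Eos, against 3 counts over both EoP libraries, a ratio of 118 (95% counting interval 40.0 to 575).

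Of 38 eosinophil lineage transcription factor genes, 15 were higher (39.5%, against 25.1% of all genes) and 6 lower (15.8%, against 24.9%), and 17 did not pass. Without either EoP library, 9 were higher. Among those that fell, Gata2 had 19.3 and 7.83 CPM in Eos, against 46.4 and 147 in EoP, and Myb had 480 and 172 CPM in Eos, against 1006 and 1027 in EoP. Runx1 fell by 1.54 (SE 0.32). Id2, an inhibitor of basic helix-loop-helix factors, had 224 and 337 CPM in Eos, against 39.0 and 42.3 in EoP. Nfil3, a basic leucine zipper factor gene, had 57.5 and 118 CPM in Eos, against 15.1 and 10.7 in EoP. Stat6, the transducer of IL-4 and IL-13, had 341 and 511 CPM in Eos, against 91.2 and 90.1 in EoP (log2 fold change 2.23, SE 0.26, adjusted p = 0.00026). All 6 of these factors were separate between the cell types, although the EoP libraries of Gata2 differed by a wide margin. The mast cell and basophil marker sum was also uneven between them, with 1046 and 3987 CPM. The part of such cells in the Gata2 level was not tested. Gata1, the factor that specifies eosinophils, had 64.8 and 90.0 CPM in Eos, against 69.6 and 60.3 in EoP, with overlapping libraries (log2 fold change 0.25, SE 0.24, adjusted p = 0.427).

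Of 40 chromatin modifying enzyme genes, 17 were higher (42.5%, against 25.1% of all genes) and 10 lower (25%, against 24.9%). Leaving out EoP replicate 1 gave 8 and 5, and leaving out the other EoP library 9 and 5. Padi4, which citrullinates histones, had 359 and 491 CPM in Eos, against 40.9 and 41.1 in EoP (log2 fold change 3.37, SE 0.25, adjusted p = 2.33e-05). Padi4 is also among the neutrophil markers counted above. Kdm6b, a demethylase gene for histone H3 lysine 27, had 166 and 218 CPM in Eos, against 28.1 and 36 in EoP. Ezh2, the methyltransferase for the same residue, had 84.4 and 65.1 CPM in Eos, against 233 and 235 in EoP. The 3 genes were separate between the cell types and passed with any library left out.

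Of 20 BCL2 family and caspase genes, 6 were higher (30.0%, against 25.1% of all genes) and 3 lower (15.0%, against 24.9%), so the counts were near or below the background. Without EoP replicate 2, 3 were higher, and without EoP replicate 1, 1 was lower. The list median of 0.34 turned to −0.16 on the RPKM scale. Bcl2, the founding antiapoptotic gene, had 15.4 and 6.55 CPM in Eos, against 39.5 and 85.1 in EoP (log2 fold change −2.50, SE 0.44, adjusted p = 0.00209). Bcl2l11, the proapoptotic gene BIM, had 37.3 and 47.6 CPM in Eos, against 10.3 and 16.5 in EoP. Fas, the death receptor gene, had 53.3 and 89.2 CPM in Eos, against 9.55 and 7.71 in EoP. Birc3, an inhibitor of apoptosis gene and NF-kappaB target, had 170 and 330 CPM in Eos, against 37.3 and 38.1 in EoP. These 4 had no overlap. Of 16 NF-kappaB subunit and feedback genes, 6 were higher (37.5%, against 25.1% of all genes) and none lower. Fewer were higher without EoP replicate 2.

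The immediate early and stress genes varied by library more than by cell type. Their sum was 2407 and 7276 CPM in Eos, against 7807 and 382 in EoP, and 1 of 19 was higher and 2 lower. These are 5.26% and 10.5%, against 25.1% and 24.9% of all genes. The list median of −0.43 was 0.21 on the RPKM scale. Without EoP replicate 1, 12 were higher and none lower, without EoP replicate 2, 8 were lower, and without Eos replicate 1, 2 were higher and none lower. Ier3 was lower by 3.35 log2 units, with 8.03 and 9.12 CPM in Eos, against 169 and 6.94 in EoP, so its libraries overlapped and its difference was 0.29 in the other direction without EoP replicate 1. Fosl2, an AP-1 subunit gene, was the exception whose call held with any library left out, with 265 and 392.4 CPM in Eos, against 31.0 and 54.1 in EoP (log2 fold change 2.95, SE 0.33). Mcl1, an antiapoptotic gene, had 920 and 2059 CPM in Eos, against 699 and 229 in EoP. Btg1, an antiproliferative gene, had 348 and 894 CPM in Eos, against 242 and 63.6 in EoP. Both were higher in Eos with uneven libraries in each cell type, and both calls were lost without EoP replicate 2 or Eos replicate 2.

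Of 23 genes of glycolysis and the pentose phosphate pathway, 8 were higher (34.8%, against 25.1% of all genes) and 3 lower (13%, against 24.9%). None was lower without EoP replicate 1, and the list median of 0.20 turned to −0.31 on the RPKM scale. Slc2a3, a high-affinity glucose transporter gene, had 853 and 946 CPM in Eos, against 49.2 and 70.5 in EoP (log2 fold change 3.91, SE 0.27, adjusted p = 1.85e-05). Taldo1, of the pentose phosphate pathway, had 358 and 456 CPM in Eos, against 151 and 115 in EoP. Ldha, the lactate dehydrogenase gene, had 338 and 424 CPM in Eos, against 614 and 591 in EoP, a fall by 0.66 (adjusted p = 0.0471) that was lost without Eos replicate 1 or either EoP library. Slc2a3 and Taldo1 held in every such test. Of 26 cholesterol and fatty acid synthesis genes, 13 were lower and 4 higher, against 24.9% and 25.1% of all genes. Without EoP replicate 1, 6 were lower and none higher, without EoP replicate 2, 8 and 1, and without Eos replicate 2, 2 were higher. Fasn, the fatty acid synthase gene, had 56.1 and 20 CPM in Eos, against 131 and 164 in EoP. Of 16 zinc transporter and metallothionein genes, 6 were lower (37.5%, against 24.9% of all genes) and none higher, led by Slc30a2. Fewer were lower without EoP replicate 1.

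H3K4me3, the histone mark of active promoters, was mapped in 1 sort of each cell type, and the authors' peak lists hold 33847 peaks in Eos and 19816 in EoP. Of the 2210 genes higher in Eos, 134 had a promoter peak in the Eos list and none in the EoP list (6.06%, exact 95% interval 5.11 to 7.14%). The share was 1.19% of the lower genes and 1.07% of the genes not called. A promoter peak in the EoP list alone was found for 0.905% of the higher genes, 1.19% of the lower genes and 1.02% of the genes not called. Most genes had a promoter peak in both lists, 73.0% of the higher, 71.5% of the lower and 74.5% of those not called. With the same number of top-ranked peaks taken from each list, the Eos-only shares were 4.66% of the higher genes, 1.0% of the lower and 0.683% of those not called. Intervals cover counting error only, and there is no replicate of either list.

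**Figure D5:**
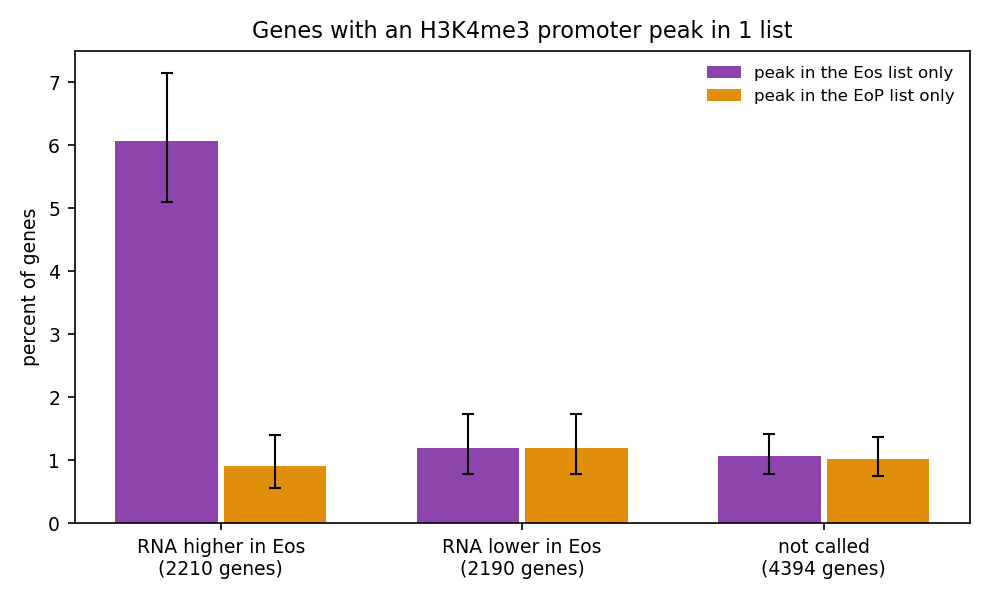
Percent of genes with an H3K4me3 promoter peak in the Eos list only (purple) or the EoP list only (orange), for 2210 genes higher in Eos, 2190 lower and 4394 not called, with exact 95% binomial intervals. The Eos-only share of the higher genes, 6.06%, stands above the other 5 bars, which lie between 0.905 and 1.19%.

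Several of the called genes have such a peak, each annotated by the authors as promoter, on mm10. Ccr3 has an Eos-list peak at chr9:124022150-124022560, with a fold enrichment of 4.12 in the authors' list. Adam19 has one at chr11:46056796-46056984 (4.38), Pla2g7 at chr17:43568703-43569050 (5.17), Mmp9 at chr2:164948202-164948375 (5.08) and Retnlg at chr16:48872982-48873180 (4.90). The Rsad2 peak at chr12:26456336-26456627 covers part of the window printed above, but its summit pileup is only 3. For the other Eos-list peaks the pileup was 7 for Pla2g7, 10 for Retnlg, 12 for Adam19 and Mmp9, and 14 for Ccr3. Retnlg and Mmp9 are among the neutrophil markers. Among the genes that fell, Prg3 has an EoP-list peak at chr2:84988871-84989827 (5.92) and none in the Eos list, and so do Cdh1, the E-cadherin gene, at chr8:106603291-106603877 (4.56) and Kcne3, a potassium channel subunit gene, at chr7:100178304-100178983 (4.88). The summit pileups of these EoP-list peaks were 32 for Prg3, 11 for Cdh1 and 7 for Kcne3. Cdh1 had 3.72 and 2.69 CPM in Eos, against 65.9 and 118 in EoP. Prg2 and Epx, which fell by 5.34 and 6.27 log2 units, have promoter peaks in both lists.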

How the data were processed

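RNA libraries were grouped by title. Per the labels' protocols, total RNA was extracted from sorted cells. The submitters' processing notes name the build mm10 and, with no role, the tools Bowtie 1.0.0 and STAR 2.4.0c. The deposited tables give an estimated count (whole numbers) and an RPKM value per RefSeq transcript; the authors' counter and its strand setting are not given here. The 31213 lines were summed to 23471 gene symbols, so reads shared between isoforms or copies can enter more than once. Counts were tested with the edgeR 4.0.16 quasi-likelihood test in R 4.3.3, with TMM factors and 1 fit of all 6 RNA libraries (the 2 GMP libraries only share the spread), over 14324 genes passing the default filter, with Benjamini-Hochberg adjustment over all of them and a threshold of 0.05; 36.8% passed in either direction. SE is that of the log2 fold change. Alternatives used DESeq2 1.42.0 and limma 3.58.1. The peak lists, per the file headers, give summit pileup signal, −log10 p and q, fold enrichment and length for 1 library each, and the authors annotated promoters within 1000 bases of a start. The peak caller, any control and the depth are likewise not given.

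The members and the 49 gene lists were chosen with earlier results of these data known. Genes were named by a rule: the 8 largest rises and falls of at least 20 CPM, the 8 highest RPKM genes per cell type, up to 4 called members of each list each way, every tested member of the lists marked for it, and the 6 largest changes each way with a promoter peak in 1 list. Ncapg, Xbp1, Gata1 and the printed promoters were chosen after the values were seen, as were the searches for 6 motifs. The rule's other promoter windows and the genes it names that are absent from the text are not reported here. The tests were tested on simulated data.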

Additional observations from a re-analysis of the deposited data

How the results depend on the processing

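The numbers of 2210 genes higher and 2190 lower in Eos stayed within 1.5 times under other scaling factors (1865 to 2460 higher, 1928 to 2327 lower), the DESeq2 Wald test (2556 and 1986), limma-voom, other count filters and a fit of the 4 libraries alone. Leaving out 1 library gave 1424 to 2540 higher and 1202 to 2751 lower. On RPKM the counts were 1356 higher and 3785 lower at a pseudocount of 0.5, 1262 and 3560 at 0.1, and 899 and 1383 without the RPKM filter. Centring each library, chosen after seeing the data, gave 2159 and 2341, and DESeq2 size factors moved the median gene by 0.11 log2 units and library size alone by −0.12. Of the 125 called genes named in the text, 121, 125 and 121 kept their calls under size factors of DESeq2, upper quartile scaling and plain library size; Ear1, Ear11, Ldha and Stx3 lost it under the first, and Ear1, Ier3, Polr1a and Psmb10 under the last. Of these 125, 114 kept their calls under the DESeq2 Wald test, 119 and 117 without Eos replicates 1 and 2, 105 without EoP replicate 1 (Ier3 turned), 108 without EoP replicate 2, and 78 on RPKM without the filter. On RPKM with the filter, 115 of 124 were kept at a pseudocount of 0.5 and 109 at 0.1.

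Of the 44 counts of list members called in 1 direction that were at least 5, 37 fell by over 1.5 times on RPKM without the filter. On RPKM with the filter 10 fell and 8 rose at a pseudocount of 0.5, and 13 fell and 7 rose at 0.1; none did with centred libraries. Without EoP replicates 1 and 2, 17 and 20 fell, without Eos replicate 2, 4 fell, and without Eos replicate 1, 2 rose. The proteasome genes called lower were 10 under DESeq2 size factors and 9 with the 4 libraries alone, where 15 oxidative phosphorylation genes were lower. The DESeq2 Wald test called 4 granule genes lower, and with no filter before the fit 23 histone genes were lower.

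On RPKM at pseudocounts of 0.5, 0.1 and 0.5 without the filter, the differences not called above were negative for Csf2rb (−0.41 in each), Cyba (−0.12 in each) and Siglec5 (−0.11 in each). Left out in turn, 1 library gave −0.32 to 0.49 for Csf2rb, −0.56 to 0.021 for Il3ra and −4.27 to 0.29 for Ier3. The cause was not tested.

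The labels number the sorts 1 and 2 but do not pair them. With the replicate number as a block, 2130 genes were higher and 2184 lower; Ier3, Ldha and Stx3 lost their calls. Deviations of same-numbered Eos and EoP libraries correlated at −0.11. With the crossed pairing, added after seeing the data on the 4 libraries, the numbers were 2118 and 1952, against 1997 and 1668 with the pairing as numbered. With 2 libraries a group, changes smaller than the spread between sorts could not be detected.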
